A study of Mus musculus with 32 samples.

Results

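The effect of A-485 on the RNA of mouse embryos was compared between the early and the late 2-cell stage. The 8 total RNA-seq libraries of the A-485 experiment at these stages were taken, 2 libraries for each stage and treatment, of 16 RNA-seq libraries and 32 samples of the series, which also profiled open chromatin and the histone mark H3K27ac. All embryos were wild type (WT), made by in vitro fertilization with gametes of young adult B6D2F1/J mice of both sexes. They were cultured in KSOM medium with 10 µM A-485 from 4 to 20 hours post insemination (hpi), or treated with DMSO as the control. Embryos kept in culture beyond that were washed first. The exact times at which embryos of the 2 stages were collected are not given in the labels. Elsewhere the paper takes embryos of the earlier stage at the hour this treatment ended. It also reports that the histone mark returned to the control level after the wash. Early 2-cell embryos may thus have had no recovery period, unlike late 2-cell embryos. Stage and time since the wash were not separated, so sensitivity below means only the size of the A-485 effect at a stage. The labels do not say whether the 2 libraries of a group came from separate pools of embryos, so p-values measure only the spread between these samples, which may be technical. Of 21897 protein-coding genes in the tables, 17129 had enough counts to be tested and 12855 of these reached a mean of 1 FPKM (fragments scaled to transcript length and library size) in at least 1 of the 4 groups. These 12855 are called expressed below.

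CBP and p300, encoded by Crebbp and Ep300, are lysine acetyltransferases that deposit H3K27ac at promoters and enhancers, and A-485 blocks their catalytic site. The mouse embryo begins with RNA stored in the oocyte, transcribes a small and transient set of genes in the zygote and early 2-cell embryo (minor zygotic genome activation, ZGA), and then activates its genome broadly by the late 2-cell stage (major ZGA). The transient early wave is known for multicopy families such as Zscan4, Usp17l, Tdpoz and Trim43, and the major wave for genes of ribosome production, splicing and translation. Total RNA measures stored and newly made transcripts together, and in a bulk sample fewer cells and less RNA per cell cannot be told apart.

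The libraries held between 13206163 and 23864414 expected counts, the lowest in late 2-cell A-485 replicate 1. The late 2-cell A-485 libraries stood apart from the other 6: the mitochondrially encoded genes took 5.43% and 5.35% of their counts, against 2.24% to 2.50% in the other libraries, and their 20 most abundant genes took 32.1% and 32.6%, against 19.0% to 21.6%. They also had 15572 and 15853 protein-coding genes with at least 3 counts, while the late 2-cell DMSO libraries had 14504 and 14438. Whether these features take part in the results was not tested. Every level is relative to the rest of its library. All 12 oocyte marker genes were expressed, and their summed level was 2705 and 2696 CPM (counts scaled to the library size) in the early 2-cell DMSO libraries, 1074 and 1204 in the late 2-cell DMSO libraries, and 2167 and 2167 in the late 2-cell A-485 libraries.

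The question was which protein-coding genes gain or lose sensitivity to A-485 between the stages. It was asked with the interaction, the log2 fold change of A-485 against DMSO at late 2-cell minus that at early 2-cell, so a negative interaction marks an effect that was lower at late 2-cell. A call needed an adjusted p under 0.05 (quasi-likelihood F test of edgeR, Benjamini-Hochberg adjustment), a difference of at least 2-fold and the cutoff of 1 FPKM. At early 2-cell, 1360 genes were lower and 49 were higher after A-485, 12.6% and 0.454% of the genes that passed the cutoff at that stage. At late 2-cell, 3243 genes were lower (25.8%) and 1819 were higher (14.5%), in all 40.3%. The interaction was lower for 1779 genes (13.8% of the expressed genes) and higher for 1393 (10.8%), in all 24.7%. The A-485 effect therefore moved in both directions, and more interactions were lower than higher. A lower interaction is not a loss of sensitivity, since it includes genes with a loss that was larger at late 2-cell. A higher one includes both losses that shrank and rises at late 2-cell.

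The balance of both directions depended on the scaling. None of the 1779 and 1393 genes was called in the other direction by any of the alternative settings, although in 10 of the 171 pairs of settings up to 4 genes had opposite calls. With the default scaling, 56.1% of the called interactions were lower and the median interaction of the expressed genes was 0.06 on the log2 scale. Scaling to total counts gave 1512 lower and 1622 higher genes (48.2% lower). Scaling to the mitochondrially encoded genes, whose share of counts was raised in the late 2-cell A-485 libraries, gave 5082 lower and 641 higher genes (88.8% lower), with a median interaction of -0.99. All 1779 lower genes were shared with that setting, and 638 of the 1393 higher genes. The share of lower genes was 67.3% without early 2-cell DMSO replicate 1, 67.3% without late 2-cell DMSO replicate 2, 68.0% among genes expressed in DMSO-treated embryos of both stages, and 68.6% with the late 2-cell DMSO libraries of the TSA experiment as controls.

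**Figure D1:**
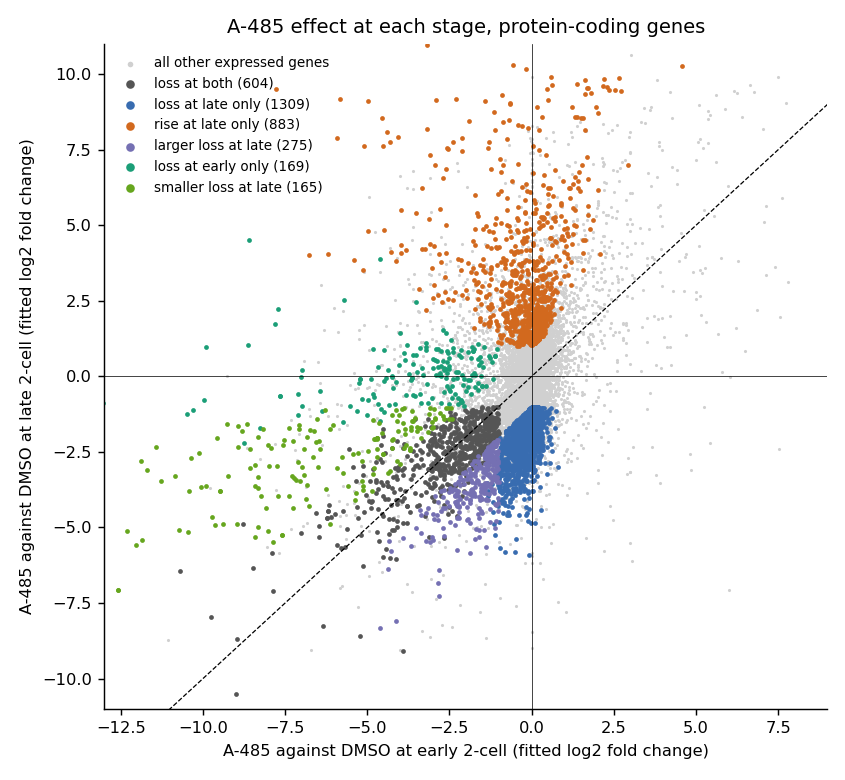
Fitted log2 fold change of A-485 against DMSO at early 2-cell (horizontal) and late 2-cell (vertical) for the expressed protein-coding genes, 1 point a gene, with 12 genes outside the axes. Colours mark combinations of calls, and points on the dashed line have the same fitted change at both stages. The 1309 genes with loss at late 2-cell only lie below the line near 0 on the horizontal axis, and the 883 genes with a rise at late 2-cell only lie above it.

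Combining the calls sorted the genes by how the effect changed. For 169 genes a loss was called at early but not at late 2-cell. Of these, 15 were still below DMSO at late 2-cell with an adjusted p under 0.05, short of the other limits of a call. For 165 genes a loss was called at both stages with a smaller fold at late 2-cell. A loss was called at both stages with a larger fold at late 2-cell for 275 genes. A further 1309 genes, expressed at early 2-cell, were lost at late 2-cell only, as were 98 genes under 1 FPKM in the early 2-cell DMSO libraries. A rise at late 2-cell only was found for 883 genes, opposite changes for 50, and a rise at early 2-cell only for 5. In 604 genes a loss was called at both stages and the interaction was not. All classes before these 604 needed a called interaction. A further 1644 genes were called at late 2-cell only without a called interaction, so a difference between the stages was not shown for them. The same held for 112 genes called at early 2-cell only. In 206 genes only the interaction was called, and 29 rose at both stages. The sizes moved with the settings: mitochondrial scaling gave 100 genes with early loss only, 3826 with late loss only and 291 with a late rise only, and the last class held 383 genes when 1 FPKM was required in DMSO at both stages. The classes are combinations of calls, so the values that follow describe them and are no test.

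The level of a class in each library shows which treatment moved between the stages. Levels are given as normalized FPKM, TMM-scaled CPM per kilobase of effective length. In the genes with early loss only, the median gene stood at 4.38 and 4.80 in the early 2-cell DMSO libraries and at 0.581 and 0.506 in the A-485 libraries, and at 3.78 and 4.09 against 4.30 and 3.80 at late 2-cell. The DMSO median thus hardly moved and the A-485 median came up to it. In A-485, 89.3% of these genes rose between the stages, against 18.9% of all expressed genes. Single genes differed in DMSO, where 19.5% of them fell and 9.47% rose, against 12.7% and 21.2% of all expressed genes. In the genes with a smaller loss at late 2-cell, the A-485 libraries went from 0.295 and 0.297 to 4.91 and 4.06, while the DMSO libraries stood at 24.6 and 23.9 and then at 23.2 and 25.9.

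In the classes that were lost more at late 2-cell, the larger move was in the DMSO libraries. For the genes with late loss only, the median gene went from 11.7 and 11.7 normalized FPKM at early 2-cell to 32.9 and 32.1 at late 2-cell in DMSO-treated embryos, and from 10.2 and 10.1 to 7.66 and 7.71 in A-485-treated embryos. Tested between stages within a treatment with the same rule, 65.4% of them rose in DMSO and 3.28% rose in A-485, where 24.4% fell. Over all expressed genes, 21.2% rose and 12.7% fell in DMSO, and 18.9% rose and 8.95% fell in A-485. The classes rest on the difference of these steps, so the shares only describe them. For the genes with a larger loss at late 2-cell, 98.9% rose in DMSO and 33.8% in A-485. Among the genes with a rise at late 2-cell only, 48.8% fell in DMSO and 52.0% rose in A-485, so this class moved in both treatments.

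**Figure D2:**
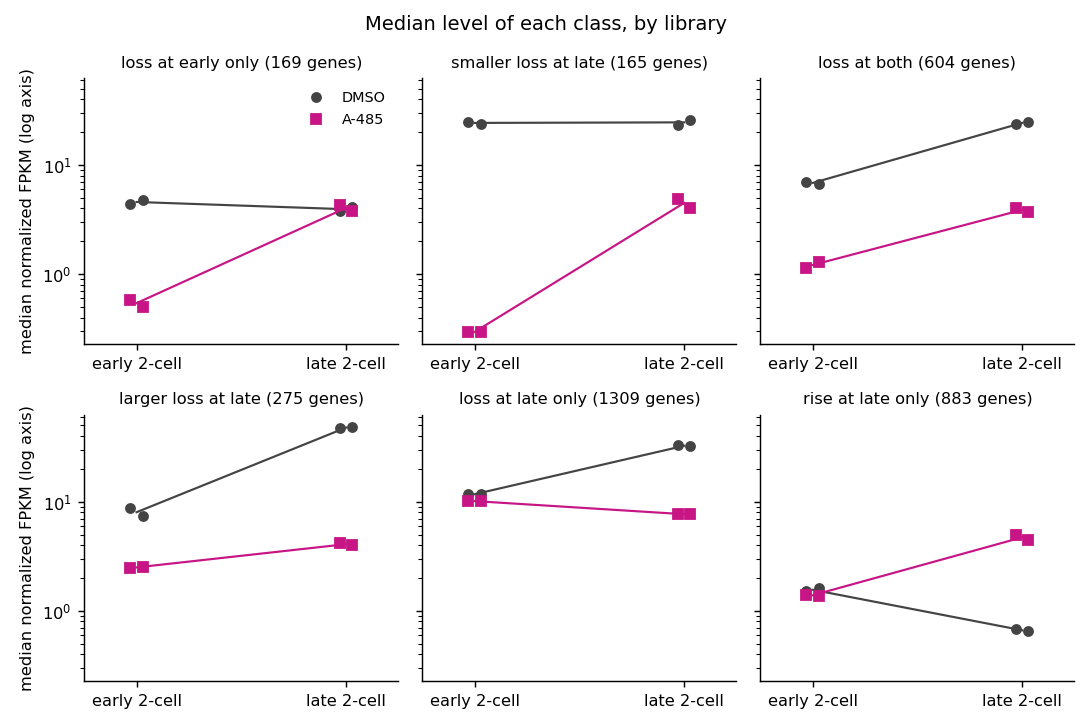
Median normalized FPKM (log axis) of the genes of each class in each library at early and late 2-cell. Points are libraries, lines join the group means, grey is DMSO and magenta is A-485. The A-485 level of the 169 genes with early loss only reaches the DMSO level at late 2-cell, and the levels of the 1309 genes with late loss only part at late 2-cell.

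The start regions of the genes differed between the classes, and 7 of them are shown because they carry the motifs counted further on. All are from RefSeq on GRCm38.p6, run 5′ to 3′ along the gene from 250 bases before its annotated start to 50 after, and have the motif in capitals. The first 3 belong to genes that were lost more at late 2-cell, Ipo4 (a nuclear import receptor), Sf3b6 (a subunit of the U2 spliceosomal particle) and Rps15 (a protein of the small ribosomal subunit), with the motif CGGAAG or its complement.
Ipo4 (chr14:55635635-55635934, - strand): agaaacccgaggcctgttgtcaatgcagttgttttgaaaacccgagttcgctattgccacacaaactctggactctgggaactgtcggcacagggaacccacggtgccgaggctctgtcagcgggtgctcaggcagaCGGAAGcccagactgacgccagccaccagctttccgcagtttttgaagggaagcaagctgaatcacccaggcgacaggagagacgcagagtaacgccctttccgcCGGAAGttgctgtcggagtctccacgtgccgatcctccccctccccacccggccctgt
Sf3b6 (chr12:4817358-4817657, + strand): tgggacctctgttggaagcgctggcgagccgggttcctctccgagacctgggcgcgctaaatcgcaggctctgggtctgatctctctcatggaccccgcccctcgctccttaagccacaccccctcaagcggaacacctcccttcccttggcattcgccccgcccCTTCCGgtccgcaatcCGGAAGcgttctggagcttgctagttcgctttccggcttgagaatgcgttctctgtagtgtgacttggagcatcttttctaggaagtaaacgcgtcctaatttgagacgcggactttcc
Rps15 (chr10:80292181-80292480, + strand): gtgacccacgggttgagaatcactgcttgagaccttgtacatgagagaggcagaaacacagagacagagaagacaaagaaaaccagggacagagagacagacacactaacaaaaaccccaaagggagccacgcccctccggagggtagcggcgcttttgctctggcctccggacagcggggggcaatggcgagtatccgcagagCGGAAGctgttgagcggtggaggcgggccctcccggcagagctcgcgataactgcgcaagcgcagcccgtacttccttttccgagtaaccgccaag

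The next belong to genes whose loss shrank: Zscan4f with TATAAA and CGGAAG in capitals, and Tdpoz1 and Zfp54 with TAATCC or its complement. The last, Vim (the intermediate filament vimentin), belongs to a gene that rose at late 2-cell and has TATAAA in capitals.
Zscan4f (chr7:11397665-11397964, + strand): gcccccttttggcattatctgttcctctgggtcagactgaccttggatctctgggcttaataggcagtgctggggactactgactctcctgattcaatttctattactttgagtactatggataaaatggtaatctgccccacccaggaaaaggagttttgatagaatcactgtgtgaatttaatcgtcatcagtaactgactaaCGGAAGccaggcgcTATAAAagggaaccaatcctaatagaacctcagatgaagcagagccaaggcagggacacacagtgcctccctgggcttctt
Tdpoz1 (chr3:93676234-93676533, - strand): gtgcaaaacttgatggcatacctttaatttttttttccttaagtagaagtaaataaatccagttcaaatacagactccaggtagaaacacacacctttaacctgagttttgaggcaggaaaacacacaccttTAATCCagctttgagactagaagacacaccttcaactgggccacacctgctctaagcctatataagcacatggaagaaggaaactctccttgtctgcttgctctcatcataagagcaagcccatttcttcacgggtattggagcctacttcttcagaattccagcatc
Zfp54 (chr17:21422977-21423276, + strand): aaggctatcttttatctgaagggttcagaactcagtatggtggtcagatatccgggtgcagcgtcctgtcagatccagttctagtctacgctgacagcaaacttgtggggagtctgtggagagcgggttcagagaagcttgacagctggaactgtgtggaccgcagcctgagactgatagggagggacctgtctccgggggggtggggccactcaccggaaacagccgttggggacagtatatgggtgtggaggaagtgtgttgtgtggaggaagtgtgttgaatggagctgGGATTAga
Vim (chr2:13574061-13574360, + strand): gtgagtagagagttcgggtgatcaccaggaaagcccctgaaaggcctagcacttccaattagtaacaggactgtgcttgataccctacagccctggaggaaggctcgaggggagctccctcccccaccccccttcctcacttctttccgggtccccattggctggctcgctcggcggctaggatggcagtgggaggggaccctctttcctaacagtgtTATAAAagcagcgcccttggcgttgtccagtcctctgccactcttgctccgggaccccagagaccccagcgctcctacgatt

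The loss shrank for many genes of the transient 2-cell wave. Of 46 genes in multicopy 2-cell families, 34 were lower at early 2-cell and 32 at late 2-cell, and the interaction was higher in 24 and lower in 2 (Duxbl2 and Sp110). Their median log2 fold change was -4.26 at early and -2.38 at late 2-cell, against -0.01 and -0.03 over all expressed genes, and their median interaction of 1.59 was 0.53 with mitochondrial scaling. The shares lower at early and at late 2-cell were 73.9% and 69.6%, against 12.6% and 25.8% of all genes at the cutoff. Those with a higher and a lower interaction were 52.2% and 4.35%, against 10.8% and 13.8%. RSEM divides reads that fit several copies between them, so single members of these families are uncertain.

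Summed over its 9 genes, the Zscan4 family, of zinc finger proteins tied to telomere maintenance in embryonic stem cells, stood at 634 and 621 normalized FPKM in the early 2-cell DMSO libraries and at 5.46 and 3.70 with A-485. At late 2-cell it stood at 163 and 176 against 30.7 and 45.2. A 137-fold difference became a 4.48-fold difference, with higher A-485 and lower DMSO levels at late 2-cell. The 5 Tdpoz genes, which encode proteins with a BTB domain, had 165 and 147 against 0.309 and 0.640 at early 2-cell and 196 and 229 against 26.7 and 29.6 at late 2-cell.

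The 5 Usp17l deubiquitinase genes went from 214 and 199 against 9.15 and 8.48 to 149 and 150 against 25.7 and 32.6. Zfp352 and its processed copy Zfp353-ps went from 178 and 165 against 4.21 and 2.77 to 84.4 and 69.4 against 22.0 and 16.9, and the 3 Trim43 genes from 37.9 and 31.1 against 0.404 and 0.582 to 233 and 209 against 25.8 and 23.3. In none of these families did the treated and control libraries overlap at either stage. The loss shrank in each, but the late 2-cell A-485 level stayed below DMSO by 3.96-fold (Zfp352 and its copy) to 9.01-fold (Trim43).

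Other 2-cell families kept their loss or showed more of it at late 2-cell. The 33 Obox homeobox genes, many of them stored in the oocyte, summed to 2861 and 2819 against 2832 and 2452 at early 2-cell and to 1199 and 1189 against 327 and 401 at late 2-cell. Their groups overlapped at early 2-cell and stood apart at late 2-cell, where A-485 was 3.28-fold lower. The 12 Pramel and Pramef genes went from a 2.02-fold to a 3.57-fold lower level, and the 2 Tcstv genes had 5.88-fold and 4.87-fold lower levels.

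Among single genes, Zscan4f (chr7:11397915-11402318, GRCm38) was at 223 and 194 normalized FPKM in the early 2-cell DMSO libraries and at 0.565 and 0 with A-485, and at 59.7 and 61.2 against 10.3 and 19.0 at late 2-cell. The groups did not overlap at either stage, and the log2 interaction was 7.52 ± 0.48 (SE), adjusted p = 3.08e-11, with 2 libraries a group as in all comparisons here. Its relatives Zscan4-ps2 and Zscan4d had interactions of 7.07 ± 0.55 and 5.75 ± 0.52. Zfp54, a KRAB zinc finger gene, was at 37.0 and 35.8 against 0.356 and 0.119 at early 2-cell and at 22.3 and 26.1 against 5.82 and 5.23 at late 2-cell, an interaction of 5.14 ± 0.35 (adjusted p = 6.98e-11).

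A list of 33 other 2-cell genes, meant to hold single-copy genes, included the 3 Trim43 copies. Of the 30 without them, 10 were lower at early 2-cell and 14 at late 2-cell. The interaction was higher in 4 and lower in 1 (Zfp655), against 10.8% and 13.8% of all expressed genes. Zfp54 was among the 4. Trim43b, a ubiquitin ligase of the tripartite motif family, had an interaction of 3.98 ± 0.45, and its reads are shared with its copies. It was at 17.7 and 16.7 against 0 and 0.253 normalized FPKM at early 2-cell and at 109 and 98.8 against 14.1 and 11.8 at late 2-cell. Tdpoz1, of the multicopy Tdpoz family, had at most 3 counts in both early 2-cell A-485 libraries, so no fold is given for it. Its levels were 21.1 and 30.3 in the early 2-cell DMSO libraries, 0 and 0.0207 with A-485, and 27.7 and 37.6 against 4.24 and 2.41 at late 2-cell.

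Among the 169 genes with a loss called at early 2-cell only, Hspa2 (chr12:76404176-76406938), a heat shock protein of the Hsp70 family, was at 42.4 and 34.7 normalized FPKM against 5.36 and 2.93 at early 2-cell and at 10.1 and 14.1 against 25.1 and 19.5 at late 2-cell. A 9.32-fold loss became a level above DMSO in both libraries, with an interaction of 4.10 ± 0.32 (adjusted p = 6.59e-10). Of 50 chaperone genes, 17 had a lower interaction and 4 a higher one, 34% and 8%, against 13.8% and 10.8% of all expressed genes. The 4 were Hspa2, the inducible Hsp70 genes Hspa1a (1.52) and Hspa1b (2.10) and the Hsp70 cochaperone Bag3 (2.35). The last 3 were still called lower at late 2-cell, with a smaller fold.

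Hes1 (chr16:30064384-30067796), a transcriptional repressor downstream of Notch, was at 22.6 and 28.0 against 4.22 and 2.07 at early 2-cell and at 18.7 and 16.9 against 27.1 and 26.2 at late 2-cell, an interaction of 3.60 ± 0.37 (adjusted p = 5.49e-08). Its A-485 libraries were the lowest of the 8 at early 2-cell and among the highest at late 2-cell. Klf10, a Krüppel-like factor induced by TGF-beta, was at 28.2 and 18.4 against 3.01 and 3.92 and then at 16.1 and 16.2 against 22.4 and 18.3 (interaction 3.08 ± 0.28). Crot, a peroxisomal carnitine acyltransferase, had an interaction of 3.75 ± 0.47, and Ldha, the lactate dehydrogenase subunit, one of 2.30 ± 0.56 that was 1.32 with mitochondrial scaling and then not called. Usp17le, Usp17la and AC153137.1 completed the genes named by the size of the interaction in this class (4.39 ± 0.38, 4.21 ± 0.34 and 4.16 ± 0.93), and AC153137.1 lost its call without late 2-cell A-485 replicate 1. At late 2-cell their log2 fold changes were still -0.76 (adjusted p = 0.0198), -0.78 (0.00912) and -1.15 (0.164), so the first pair stayed below DMSO by less than 2-fold.

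**Figure D3:**
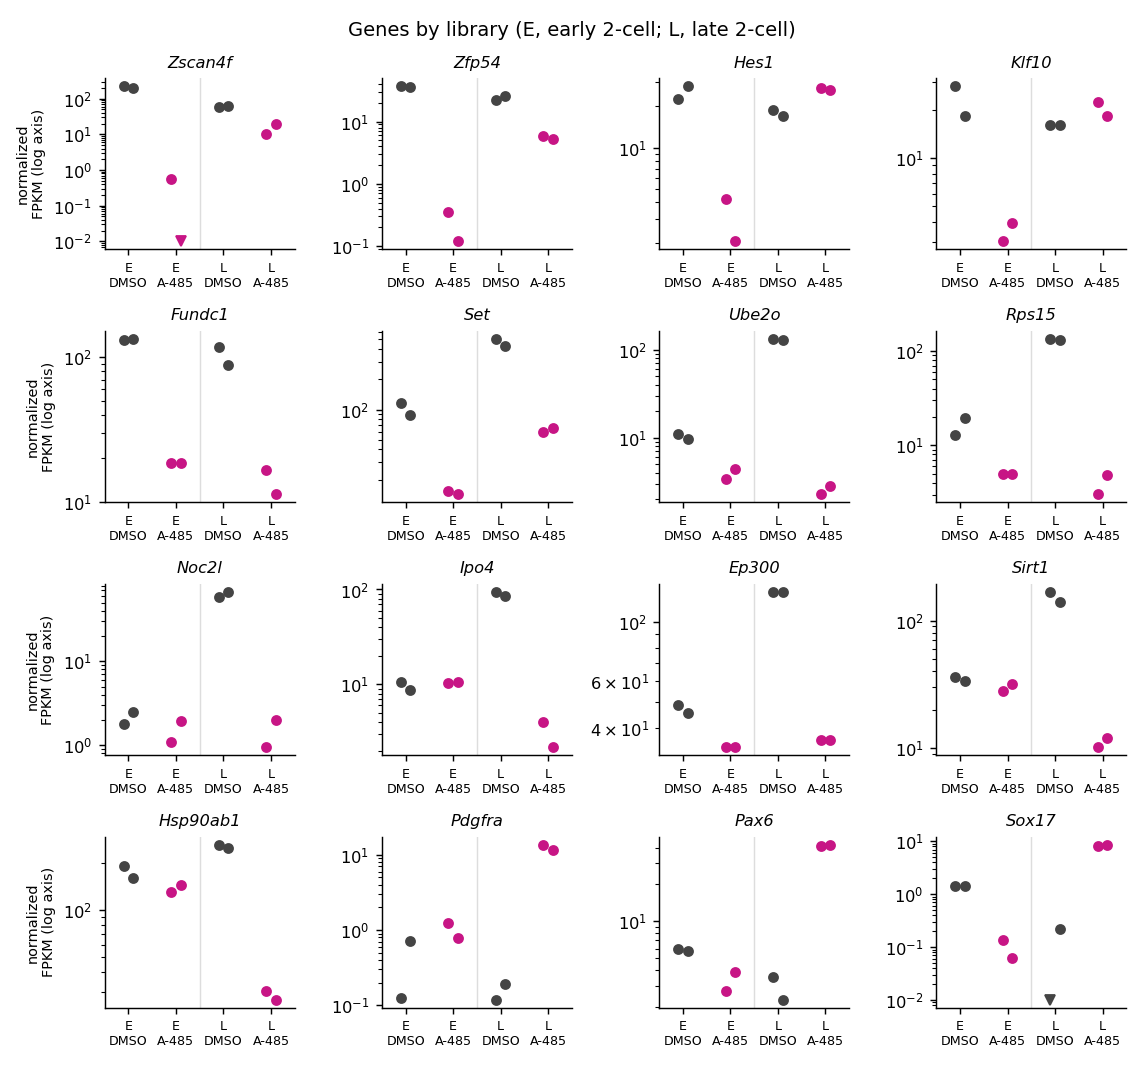
Normalized FPKM (log axis, a separate range for each gene) of 16 named genes in each of the 8 libraries, grey for DMSO and magenta for A-485, with E for early and L for late 2-cell. A triangle at the bottom marks a library with 0 counts. Hes1 reaches and Zscan4f stays below the DMSO level with A-485 at late 2-cell, Noc2l, Ipo4 and Sirt1 part from DMSO at late 2-cell only, and Pax6 and Sox17 stand above DMSO at late 2-cell.

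Of the 37 gene lists, ribosome biogenesis factors had the highest share of lower interactions. Of 127 ribosome biogenesis factors, which process and assemble ribosomal RNA and protein in the nucleolus, 44 were lower at early 2-cell and 116 at late 2-cell. The interaction was lower in 85 (66.9%, against 13.8% of all expressed genes) and higher in none. Their median log2 fold change went from -0.62 to -2.64. The median member was at 10.0 and 9.03 normalized FPKM in the early 2-cell DMSO libraries and at 41.6 and 38.4 in the late ones, and its A-485 level moved by only 0.29 on the log2 scale between the stages (median over the members).

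Noc2l (chr4:156236010-156247616), a nucleolar protein of large subunit assembly, was at 1.79 and 2.45 against 1.10 and 1.95 normalized FPKM at early 2-cell, where the groups overlapped, and at 57.8 and 67.2 against 0.949 and 2.02 at late 2-cell. The interaction was -4.91 ± 0.38 (adjusted p = 8.49e-10), and the late difference was 41.7-fold. Ddx54, a nucleolar RNA helicase, had 5.07 and 4.18 against 2.34 and 1.91 and then 50.8 and 56.4 against 1.58 and 1.70 (interaction -3.90 ± 0.24). In both genes the A-485 level did not follow the DMSO rise of more than 10-fold.

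The cytoplasmic ribosomal protein genes were already sensitive at early 2-cell. Of 79 genes, 49 were lower at early 2-cell (62.0%, against 12.6% of all genes) and 76 at late 2-cell (96.2%, against 25.8%). The interaction was lower in 39 (49.4%, against 13.8%) and higher in none (against 10.8%). Rps15 (chr10:80292453-80294114) was at 13.0 and 19.4 against 5.01 and 4.97 normalized FPKM at early 2-cell and at 134 and 130 against 3.03 and 4.87 at late 2-cell. A 3.24-fold loss became a 33.1-fold loss, with an interaction of -3.35 ± 0.48 (adjusted p = 8.89e-06). Rpl19 of the large subunit had an interaction of -3.08 ± 0.32. Processed copies of ribosomal protein genes are many in the genome, so their counts are less certain.

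The 30 subunits of RNA polymerases I and III, which transcribe ribosomal and transfer RNA, had 9 members lower at early 2-cell, 26 at late 2-cell and 20 with a lower interaction, with none higher. These were 30.0%, 86.7% and 66.7% of the list, against 12.6%, 25.8% and 13.8% of all genes at the cutoff. The last share was close to the 66.9% of ribosome biogenesis factors. Znrd1, a subunit of RNA polymerase I, was at 1.04 and 2.57 against 1.14 and 0.720 normalized FPKM at early 2-cell and at 20.5 and 37.8 against 0.169 and 0.921 at late 2-cell (interaction -4.71 ± 1.02). Polr3e, of RNA polymerase III, had an interaction of -4.03 ± 0.57.

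Further groups of gene expression gained sensitivity with smaller early losses. In the spliceosome list, 14 of 84 members were lower at early 2-cell, 60 at late 2-cell and 41 in the interaction, with 1 higher (Lsm3). Among 100 subunits of RNA polymerase II and general factors, these counts were 8, 54 and 40, with 2 higher (Taf7l and Taf9b). Among 62 translation factors they were 9, 40 and 30, with 3 higher (Eif2ak2, Eif4e1b and Eif4ebp1), and among 56 genes of the nuclear pore and nuclear transport 7, 29 and 24, with none higher. The shares with a lower interaction were 48.8%, 40%, 48.4% and 42.9%, against 13.8% of all expressed genes.

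Ipo4 (chr14:55625400-55635957) was at 10.6 and 8.82 against 10.3 and 10.5 normalized FPKM at early 2-cell and at 94.3 and 85.2 against 4.04 and 2.19 at late 2-cell. The groups overlapped early and differed 29.0-fold late, with an interaction of -4.96 ± 0.36 (adjusted p = 2.73e-10), and the A-485 level itself fell between the stages. Sf3b6 was at 8.10 and 10.7 against 5.62 and 5.09 and then at 34.9 and 35.3 against 1.12 and 3.94 (interaction -2.96 ± 0.52). Ctnnbl1 of the spliceosome (-3.28 ± 0.32), Ipo5, another importin (-2.92 ± 0.16), Nelfe, a subunit of the negative elongation factor (-3.37 ± 0.57), Taf6l of transcription coactivator complexes (-3.35 ± 0.75), and the initiation factor subunits Eif3g (-3.26 ± 0.43) and Eif3h (-3.13 ± 0.27) were the largest called members of these lists.

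Lower interactions also outnumbered higher ones among 23 aminoacyl-tRNA synthetases (10 lower, 1 higher, Lars), 45 proteasome subunits (16 lower, 2 higher, Psmb3 and Psmb8), 50 chaperones (17 and 4, as above), 63 DNA replication genes (16 lower, 1 higher, Wdhd1), 29 genes of purine and pyrimidine synthesis (9 lower, 0 higher) and 77 mitochondrial ribosomal proteins (15 lower, 1 higher, Mrpl42). The shares that were lower, in that order, were 43.5%, 35.6%, 34.0%, 25.4%, 31.0% and 19.5%, against 13.8% lower and 10.8% higher over all expressed genes. The last share was the nearest to the background. Their median interactions lay between -1.20 and -0.42. Hsp90ab1, the constitutive cytoplasmic Hsp90, was at 191 and 161 against 130 and 146 normalized FPKM at early 2-cell and at 262 and 250 against 30.3 and 26.7 at late 2-cell (interaction -2.82 ± 0.15). Gmnn, which encodes the licensing inhibitor geminin, was at 122 and 140 against 123 and 128 and then at 204 and 207 against 30.6 and 27.2 (interaction -2.77 ± 0.19), and its partner Cdt1 had an interaction of -2.82 ± 0.23. All 3 fell between the stages in A-485-treated embryos, Hsp90ab1 by 2.28, Gmnn by 2.12 and Cdt1 by 1.37 on the log2 scale.

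Impdh1, which makes the precursor of guanine nucleotides, was at 4.43 and 5.21 against 0.302 and 1.03 normalized FPKM at early 2-cell and at 56.2 and 57.3 against 0.169 and 1.12 at late 2-cell. Its interaction of -3.58 ± 0.62 lost its call without early 2-cell A-485 replicate 2, where it was -2.48. Aprt, of purine salvage (-3.30 ± 0.72), the synthetases Hars (-3.14 ± 0.65) and Rars (-2.88 ± 0.29), the proteasome subunits Psmd14 (-2.53 ± 0.49) and Psmd6 (-2.21 ± 0.47), and Mrps6 (-3.14 ± 0.57) and Mrpl12 (-3.02 ± 0.47) of the mitochondrial ribosome were the other members named by rule. Only called members could be named.

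The largest interactions among the named genes with late loss only were in genes of several other functions. Rab40c, a Rab GTPase, was at 1.49 and 1.21 against 1.07 and 1.47 normalized FPKM at early 2-cell and at 17.0 and 14.2 against 0.294 and 0.214 at late 2-cell, an interaction of -5.83 ± 0.69 (adjusted p = 5.41e-07). Cinp, which binds Cdk2 (-4.99 ± 0.89), Arpc1a of the actin-nucleating Arp2/3 complex (-4.81 ± 0.56), Smyd5, a SET domain methyltransferase (-4.66 ± 0.51), and Usp22, the deubiquitinase of the SAGA complex (-4.39 ± 0.30), followed in the class with late loss only. The rule for naming genes of this class required that the treated and control libraries did not overlap at late 2-cell.

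Among the genes lost at both stages with a larger fold at late 2-cell, Ube2o (chr11:116537740-116581447), a ubiquitin-conjugating enzyme, was at 11.1 and 9.60 against 3.44 and 4.47 and then at 132 and 127 against 2.29 and 2.86. A 2.61-fold loss became a 50.3-fold loss (interaction -4.27 ± 0.20, adjusted p = 6.38e-13). Pdxk, pyridoxal kinase (-3.98 ± 0.63), and Coq4, of coenzyme Q synthesis (-3.97 ± 0.68), followed, and Pdxk lost its call without early 2-cell A-485 replicate 2, where the interaction was -2.61.

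Of the 98 genes with late loss only and a mean under 1 FPKM in the early 2-cell DMSO libraries, Zfp977 was at 0.667 and 0.605 against 0.999 and 0.522 normalized FPKM at early 2-cell and at 15.1 and 12.8 against 0 and 0.363 at late 2-cell (interaction -6.43 ± 0.92). Cpne1, a calcium-dependent membrane-binding copine (-5.26 ± 0.62), and Mpdu1, of dolichol-linked sugar use (-4.83 ± 1.02), had the next interactions. Tmem191c, with at most 3 counts in both libraries of a group, was at 0 and 0.138 against 0.351 and 0.508 and then at 9.62 and 12.2 against 0.209 and 0.569. This class is set by that cutoff and not by the absence of the gene. The early 2-cell DMSO mean of its genes had a median of 0.50 FPKM and reached 0.98, and was under 0.1 in 13 of them.

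**Figure D4:**
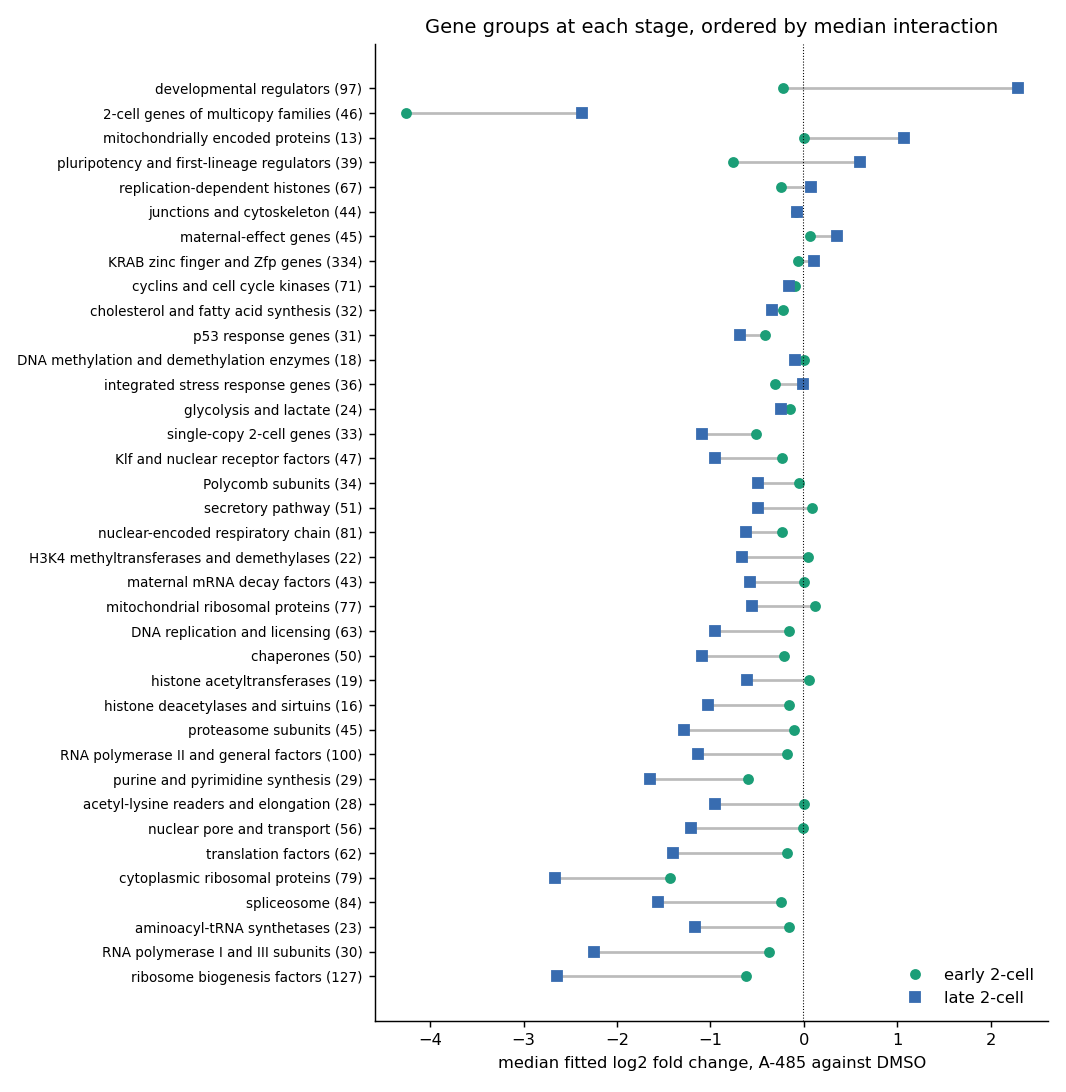
Median fitted log2 fold change of A-485 against DMSO at early 2-cell (green circles) and late 2-cell (blue squares) for the expressed members of 37 gene lists, with their number in parentheses, ordered by the median interaction. Ribosome biogenesis factors go from -0.62 to -2.64 and multicopy 2-cell genes from -4.26 to -2.38. Of the 97 developmental regulators, 43 passed the cutoff only through their level in late 2-cell A-485 embryos, so their late median is not comparable with the others.

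The genes of the drug targets themselves changed differently. Ep300 (chr15:81585351-81652077) was at 48.7 and 45.5 against 34.0 and 34.1 normalized FPKM at early 2-cell and at 129 and 129 against 36.0 and 36.1 at late 2-cell. The late difference of 3.57-fold exceeded the early one of 1.38-fold by an interaction of -1.37 ± 0.12 (adjusted p = 8.28e-09). Crebbp (chr16:4081328-4213997) was at 266 and 281 against 304 and 293 and then at 232 and 236 against 376 and 349, an interaction of 0.50 ± 0.11 (adjusted p = 0.00112) that was under the 2-fold limit and was -0.54 with mitochondrial scaling.

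Few other enzymes of histone acetylation were called. Of 19 histone acetyltransferases, 3 had a lower interaction (Ep300, Kat2a and Kat7), of 16 histone deacetylases and sirtuins 4 did (Hdac4, Hdac6, Sirt1 and Sirt7), and none of either list had a higher one. The share of 15.8% in the first list was near the 13.8% of all expressed genes, and that in the second was 25.0%. Sirt1, an NAD-dependent deacetylase, was at 36.2 and 33.8 against 28.1 and 31.5 normalized FPKM at early 2-cell and at 168 and 141 against 10.2 and 11.9 at late 2-cell, a 14.0-fold loss with an interaction of -3.58 ± 0.17 (adjusted p = 6.38e-13). Kat2a (-1.73 ± 0.26) and Hdac6 (-2.57 ± 0.36) had smaller ones.

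Of 28 acetyl-lysine readers and elongation factors, 11 (39.3%) had a lower interaction, among them Mllt1 (-2.04 ± 0.43) and the corepressor Trim28 (-2.31 ± 0.20), and 1 a higher one (Smarca2). Among 34 Polycomb genes, 5 were lower (Ezh1, Rbbp7, Pcgf6, Kdm2b and L3mbtl2, the last at -2.16 ± 0.31) and 3 higher (among them Epop and Cbx8, the latter at 4.47 ± 0.82). Those shares, 14.7% and 8.82%, were near the 13.8% and 10.8% of all expressed genes. Among 22 writers and erasers of H3K4 methylation, 4 were lower (Kmt2b, Setd1a, Wdr5 and the demethylase Kdm1a, at -1.58 ± 0.21) and 1 higher, the methyltransferase Kmt2a (2.05 ± 0.43, and 0.97 and not called with mitochondrial scaling). These were 18.2% and 4.55% of the list. Of 18 genes of DNA methylation, 1 was lower (5.56%) and 2 were higher (11.1%), among them Mbd2. The lower one, Dppa3, which protects maternal methylation, was at 1799 and 1572 against 1898 and 1867 at early 2-cell and at 1254 and 972 against 196 and 248 at late 2-cell (interaction -2.48 ± 0.16). Mbd2, a reader of methylated DNA, had 1.10 ± 0.32 and lost its call in 8 alternatives (0.04 with mitochondrial scaling).

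Of 167 developmental regulators, transcription factors and ligands of later embryos, 55 were called higher and 5 lower at late 2-cell, and 0 higher and 16 lower at early 2-cell. The interaction was higher in 50 and lower in 2 (Sox13 and Foxr1), and in 37 and 13 with mitochondrial scaling. Of the members, 156 were tested and 97 reached 1 FPKM, 43 of them only in the late 2-cell A-485 libraries, so these counts depend on the cutoff and no share is read from them. Of the 34 members with 1 FPKM in DMSO at both stages, a condition set after the data were seen, 12 had a higher interaction and 1 a lower one (35.3% higher, against 8.14% of all genes under that condition), and 8 were higher and 4 lower at late 2-cell. The summed level of all 167 was 4490 and 4393 CPM in the late 2-cell A-485 libraries, above the 3672 and 3848 of the late 2-cell DMSO libraries and within the 4327 to 4573 of the early 2-cell libraries. Levels of single genes were low: the median of the 97 was at 0.951 and 1.05 normalized FPKM in the early 2-cell DMSO libraries, at 0.587 and 0.553 in the late ones, and at 2.75 and 2.95 in the late 2-cell A-485 libraries.

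Pax6 (chr2:105668900-105697364), a homeobox factor of eye and brain, was at 5.90 and 5.79 against 2.70 and 3.84 normalized FPKM at early 2-cell and at 3.53 and 2.29 against 40.9 and 42.1 at late 2-cell. The late rise was 14.2-fold and the interaction 4.66 ± 0.36 (adjusted p = 8.12e-10). Hoxd13, a homeobox gene of the limb, was at 1.41 and 2.76 against 2.31 and 2.20, where the groups overlapped, and then at 0.810 and 1.08 against 14.8 and 10.3 (interaction 3.62 ± 0.50). Dlx6, with at most 3 counts in both late 2-cell DMSO libraries, was at 0.730 and 1.53 against 0.463 and 0.724 and then at 0.0807 and 0 against 6.20 and 4.21.

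Pdgfra (chr5:75152292-75198215), a receptor of platelet-derived growth factor, was at 0.125 and 0.706 against 1.23 and 0.788 at early 2-cell and at 0.118 and 0.189 against 13.6 and 11.4 at late 2-cell (interaction 5.08 ± 0.64, adjusted p = 1.29e-06). It is also a fibroblast marker. The summed level of 11 fibroblast markers was 94.96 and 85.6 CPM in the late 2-cell A-485 libraries and 11.6 to 16.3 in the others, with 3 of the 11 expressed and Pdgfra and Postn called, and that of 12 cumulus cell markers was 13.1 and 13.7 against 4.63 to 11.9, with Foxl2 called. The 8 erythroid markers stayed at 0.357 to 2.50 in all libraries, and the 10 sperm markers, at 209 and 206 in the late 2-cell A-485 libraries, lay within the range of the others (181 to 378). The part of other cells in these rises was not tested.

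The other genes named in the class were the glucose transporter gene Slc2a4 (3.96 ± 1.27), the homeobox repressor Tgif1 (3.85 ± 0.62), the galectin Lgals4 (3.75 ± 1.12), the nuclear receptor Nr4a2 (3.74 ± 0.49) and the Ras-like Rasl11a (3.66 ± 0.73). Slc2a4 and Lgals4 lost their calls with mitochondrial scaling (2.87 and 2.70) and without several single libraries. Klf6 was at 0.903 and 0.667 against 1.39 and 0.837 normalized FPKM at early 2-cell and at 0.424 and 1.13 against 12.1 and 8.62 at late 2-cell (interaction 3.24 ± 0.54).

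Receptor genes of sensory neurons had low summed levels. The 1135 olfactory receptor genes summed to 201 and 202 CPM against 150 and 145 at early 2-cell and to 93.8 and 99.8 against 166 and 170 at late 2-cell, so A-485 went from below to above DMSO. The DMSO level fell by more than the A-485 level rose, and the late A-485 level stayed under that of early DMSO. The 331 vomeronasal receptor genes summed to 66.8 and 61.5 against 60.7 and 59.0 and then to 46.6 and 48.9 against 89.8 and 86.6. Among them, 16 olfactory and 8 vomeronasal receptor genes reached 1 FPKM. At late 2-cell 3 olfactory receptor genes were called higher and 1 lower, and 3 vomeronasal receptor genes higher and 0 lower. Over all genes at the cutoff 14.5% were higher and 25.8% lower. The interaction was higher in 8 olfactory and 3 vomeronasal receptor genes and lower in 0 of either, against 10.8% and 13.8% of all expressed genes. So few genes reached 1 FPKM that no share is read from these counts.

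Opposite changes, a loss at early and a rise at late 2-cell or the reverse, were called in 50 genes, 47 of them with a higher interaction. Sox17 (chr1:4490931-4497354), a factor of endoderm, was at 1.42 and 1.40 against 0.136 and 0.0614 normalized FPKM at early 2-cell and at 0 and 0.221 against 8.17 and 8.61 at late 2-cell. The groups stood apart at both stages with the order reversed, and the interaction was 10.05 ± 1.10 (adjusted p = 1.60e-07). Morc4 (5.67 ± 0.66) and the thymosin gene Tmsb4x (5.18 ± 0.69) followed. The 3 genes with a lower interaction, Ankrd37, Zc3h11a and mt-Co2, were looked up after their values were seen. The 5 genes with a rise at early 2-cell only were Creb1, named by rule, and Ccdc96, Tars2, Gm42742 and Gm49366, of which the last pair had 0 counts in both early 2-cell DMSO libraries. Creb1, a cAMP-responsive factor that recruits CBP, was at 1.33 and 2.38 against 4.76 and 3.83 and then at 12.5 and 9.78 against 5.84 and 5.96 (interaction -2.12 ± 0.38).

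Pluripotency and lineage genes divided. Of 39 expressed members, 10 were lower at early and 10 at late 2-cell, 15 were higher at late 2-cell, and the interaction was higher in 15 and lower in 4 (Dppa5a, Sall4, Esrrb and Gata4). At late 2-cell 25.6% were lower and 38.5% higher, against 25.8% and 14.5% of all genes at the cutoff. The interaction was higher in 38.5% and lower in 10.3%, against 10.8% and 13.8% of all expressed genes. Gata6, a factor of primitive endoderm, was at 0.872 and 1.31 against 0.649 and 0.402 and then at 0.557 and 0.260 against 4.09 and 6.60 (interaction 4.75 ± 0.70). The median interaction of 0.65 turned to -0.36 with mitochondrial scaling, under which 14 members were still higher. Of the 28 members with 1 FPKM in DMSO at both stages, 7 were higher and 4 lower. These were 25.0% and 14.3%, against 8.14% and 17.3% of all genes under that condition. Among 47 Klf, nuclear receptor and related factors, 10 had a lower and 6 a higher interaction. These were 21.3% and 12.8%, against 13.8% and 10.8% of all expressed genes.

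The replication-dependent histones, 67 genes, had 15 members with a higher and 1 with a lower interaction (Hist1h2ai). These were 22.4% and 1.49%, against 10.8% and 13.8% of all expressed genes. The median interaction of the histones, 0.41, turned to -0.66 with mitochondrial scaling. Hist1h1t (4.58 ± 1.11) and Hist1h3i (2.13 ± 0.66) were the largest by rule, and Hist1h3i lost its call in 9 alternatives, 7 of them with a single library left out. Among 44 genes of junctions and cytoskeleton, 12 were higher and 6 lower (27.3% and 13.6%, against 10.8% and 13.8% of all expressed genes). Vim was at 0.231 and 1.47 against 0.485 and 0.0879 and then at 0.465 and 0.387 against 6.79 and 4.29 (interaction 5.26 ± 1.13), and Krt18, an epithelial keratin, at 2.52 and 5.88 against 0.381 and 0.586 and then at 2.85 and 1.24 against 8.83 and 9.20 (interaction 5.24 ± 0.75). Vim lost its call without early 2-cell DMSO replicate 2 (3.40).

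Several groups had calls in both directions, with median interactions between -0.40 and 0.35. They were cyclins and cell cycle kinases (14 lower and 10 higher of 71), integrated stress response genes (7 and 5 of 36), KRAB zinc finger and Zfp genes (33 and 49 of 334), maternal mRNA decay factors (11 and 4 of 43), secretory pathway genes (12 and 2 of 51) and nuclear-encoded respiratory chain genes (9 and 3 of 81), together with the smaller groups that follow. The shares lower and higher, in that order, were 19.7% and 14.1%, 19.4% and 13.9%, 9.88% and 14.7%, 25.6% and 9.30%, 23.5% and 3.92%, and 11.1% and 3.70%. Over all expressed genes they were 13.8% and 10.8%. Of 31 p53 response genes, Ei24, Aen, Apaf1 and Tigar were lower and Ccng1, Zmat3, Plk2, Polk and Psrc1 higher. With 1 FPKM required in DMSO at both stages, the higher members were 32 of 245 KRAB and Zfp genes, 2 of 28 integrated stress response genes and 3 of 24 p53 response genes. These were 13.1%, 7.14% and 12.5%, against 8.14% of all genes under that condition. Of 32 genes of cholesterol and fatty acid synthesis, 3 were lower, among them Fdft1 and Fasn, and 5 higher, among them Msmo1, Nsdhl, Sc5d and Scd2. Of 24 genes of glycolysis and lactate, Pgk1, Pgam1 and Pkm were lower and 6 were higher, among them the transporters Slc2a3 and Slc16a3. Of 45 maternal-effect genes, Dppa3 and Trim28 were lower and Bmp15, Ybx2 and Tcl1 higher. The shares lower and higher were 12.9% and 16.1% for p53 response genes and 9.38% and 15.6% for cholesterol and fatty acid synthesis. They were 12.5% and 25.0% for glycolysis and lactate and 4.44% and 6.67% for maternal-effect genes.

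With mitochondrial scaling the median interaction of each of these lists was below 0. The higher members of the lists with few of them were Atf3, Eif2ak2, Vldlr, Nupr1 and Xbp1 of the integrated stress response, Tob1, Zfp36l1, Tut4 and Mlh3 of mRNA decay, Kdelr1 and Kdelr2 of the secretory pathway, and Ndufb4, Ndufv3 and Ndufa10 of the respiratory chain. Cdc20 and Anapc7 of the anaphase-promoting complex (-2.70 ± 0.31 and -3.35 ± 0.35), the p53 targets Tigar (-2.48 ± 0.26) and Plk2 (2.57 ± 0.32), Xbp1 of the unfolded protein response (2.89 ± 0.93), Pgk1 of glycolysis (-2.35 ± 0.32), Scd2, a fatty acid desaturase (3.70 ± 0.43), Msmo1 of sterol synthesis (1.46 ± 0.32), Zfp105 (5.72 ± 0.72), Zfp36l1 and Smg5 of mRNA decay (4.22 ± 0.67 and -2.24 ± 0.25), Golga2 and Srpr of the secretory pathway (-2.18 ± 0.17 and -2.18 ± 0.26), and Ndufb4 and Uqcrfs1 of the respiratory chain (5.31 ± 1.16 and -2.87 ± 0.55) were those named by rule. Xbp1 lost its call in 8 alternatives and Msmo1 with mitochondrial scaling (0.42). Nupr1, with at most 3 counts in both early 2-cell A-485 libraries, was at 1.38 and 2.67 against 0 and 0.0512 and then at 4.17 and 2.95 against 11.9 and 7.71.

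Of the 13 mitochondrially encoded proteins, 6 had a higher interaction (46.2%, against 10.8% of all expressed genes). mt-Nd1, a subunit of complex I, was at 4534 and 4276 against 4941 and 3936 normalized FPKM at early 2-cell and at 4033 and 3723 against 9387 and 9905 at late 2-cell (interaction 1.30 ± 0.11). mt-Nd3 had 1.27 ± 0.12. The lower one was mt-Co2, whose libraries varied more than 5-fold within each A-485 group. By construction the group has no general interaction under mitochondrial scaling.

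The 604 genes lost at both stages without a called interaction had median log2 fold changes of -2.27 and -2.36 and included abundant genes. Fundc1, a mitophagy receptor on the X chromosome, was at 132 and 134 against 18.7 and 18.5 normalized FPKM at early 2-cell and at 117 and 88.8 against 16.5 and 11.3 at late 2-cell, a difference of 7.16-fold and 7.42-fold. Set, a histone chaperone and inhibitor of acetylation, was at 116 and 87.4 against 15.2 and 14.3 and then at 505 and 433 against 59.9 and 65.7. The level of Set rose in both treatments and the loss stayed near 7-fold, with an interaction of -0.12 ± 0.19 (adjusted p = 0.773). Taf1d, of RNA polymerase I transcription, and Calr, an endoplasmic reticulum chaperone, had interactions of -0.48 ± 0.16 and -0.88 ± 0.17. Calr was near the limit of a call and passed it in 5 alternatives: -1.14 without early 2-cell DMSO replicate 1, -1.07 without late 2-cell A-485 replicate 2, -1.25 without late 2-cell DMSO replicate 2, -1.20 with the DMSO libraries of the TSA experiment, and with mitochondrial scaling. With mitochondrial scaling all 4 were called lower, Fundc1 at -1.09, Set at -1.17, Taf1d at -1.53 and Calr at -1.93.

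The share of genes with transcripts present before the 2-cell stage differed between the classes. The zygote libraries did not enter the calls, but total RNA includes stored transcripts, so a loss called at early 2-cell is not independent of the zygote level. The shares describe the classes and are no test. The median early 2-cell DMSO level also differed: 11.7 normalized FPKM for late loss only, 4.53 for early loss only and 25.7 for a smaller late loss. The cutoff at early 2-cell bears on these shares, so each is set against the 88.7% of the 10362 expressed genes with 1 FPKM in early 2-cell DMSO that were at 1 FPKM or more in DMSO-treated zygotes. Levels above that cutoff were not matched. Of the 1309 genes with late loss only, which passed that cutoff by definition, 98.6% were (95% Wilson interval 97.8% to 99.1%). Of the 98 under it 36.7% were (27.9% to 46.6%), and of both together 94.3% (93.0% to 95.4%). Of the genes with a larger late loss 80.7% were (75.7% to 85.0%). Of the genes with early loss only 24.3% were (18.4% to 31.2%), and of those with a smaller late loss 18.2% (13.0% to 24.8%), and all genes of these 3 classes passed the early cutoff. Of the genes with a rise at late 2-cell only, 50.8% were (47.6% to 54.1%), against 75.5% of all expressed genes, and of the 523 of them that passed the early cutoff 81.5% (77.9% to 84.6%). Noc2l was at 11.7 and 13.5 FPKM in the zygote libraries and Zscan4f at 1.75 and 0.77.

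Gene structure differed too. Genes with a single exon made up 11.2% of those with early loss only (7.32% to 16.9%) and 16.4% of those with a smaller late loss (11.5% to 22.8%), and 1.45% of those with late loss only (0.931% to 2.26%), against 3.20% of all. The median gene was 8.22 kb long in the first class, 5.49 kb in the second and 23.3 kb in the third, against 24.1 kb. Of the genes with a rise at late 2-cell only, 8.83% lay on the X chromosome, and of those with early loss only 9.47%, against 3.82% of all.

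Promoter letters followed the same division. RefSeq start regions were matched by symbol for 10008 of the expressed genes. The observed over expected ratio of CpG had a median of 0.872 in genes with late loss only and 0.442 in genes with a smaller late loss, against 0.761. CGGAAG, searched on both strands, stood in 48.0% of the regions of genes with late loss only (44.99% to 51.02%) and in 48.9% with a larger late loss (42.4% to 55.4%), in 22.4% with early loss only (15.6% to 31.2%) and 15.2% with a smaller late loss (9.29% to 23.9%), against 31.1% of expressed genes and 26.7% of 13087 start regions. The intervals of the first pair lie above and that of the smaller late loss below the share of expressed genes. Copies of multicopy promoters were not removed from the class with a smaller late loss.

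TATAAA on the forward strand stood in 13.1% (7.96% to 20.8%) of the regions of genes with early loss only and 15.2% (9.29% to 23.9%) with a smaller late loss, against 4.55% of expressed genes and 5.51% of all start regions. TAATCC on both strands stood in 20.7% (13.6% to 30.0%) with a smaller late loss and 14.0% (8.68% to 21.8%) with early loss only, against 5.91% and 6.13%. Multicopy families repeat 1 promoter many times. Without them and without genes named Gm with digits, the shares of TAATCC were 11.1% (5.49% to 21.2%) and 10.8% (5.95% to 18.7%), against 5.64%, so the first interval then held the share of expressed genes. These are counts of letters in a window and not of bound sites. CCAAT, an element of many promoters, and the letters GGGCGG of a GC box were counted on both strands as well. So were the E-box CACGTG, the nuclear receptor site AGGTCA and the homeobox site TAATTA. The longer CGCATGCG, TGACGTCA and TCGCGAGA completed the motifs counted. None of these is described here.

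Open chromatin at early 2-cell, measured by ATAC-seq in embryos treated in the same way, was compared with the classes. There was 1 list of peaks for each treatment over both replicates, with 27693 distinct peaks for DMSO and 13712 for A-485, so the shares have no replicate error. A peak lay within 1 kb of a start in 79.0% of the genes with late loss only in the DMSO list (76.7% to 81.1%) and in 78.8% in the A-485 list (76.5% to 80.9%), at a stage where their RNA was not called lower. In the genes with a smaller late loss these shares were 33.3% (26.6% to 40.8%) and 21.8% (16.2% to 28.7%), and in those with early loss only 36.7% (29.8% to 44.2%) and 51.5% (44.0% to 58.9%).

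The genes with a rise at late 2-cell only had a promoter peak at early 2-cell in 24.5% of cases with DMSO and in 59.7% with A-485. Over all expressed genes the shares were 49.8% and 61.9%, although the A-485 list was shorter. Of the 883 genes with a late rise only, 523 had 1 FPKM in early 2-cell DMSO, and the peak shares were not matched for this. A low share in DMSO therefore cannot be told apart from the choice of genes with low DMSO levels. Distal peaks, over 2.5 kb from any start and within 50 kb of a gene, were fewer with A-485 in all classes: 88.5% against 25.7% for late loss only, 90.2% against 28.7% for a larger late loss, 56.3% against 29.0% for a late rise, and 73.7% against 26.4% over all expressed genes. Depth and quality of the ATAC libraries were not tested.

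**Figure D5:**
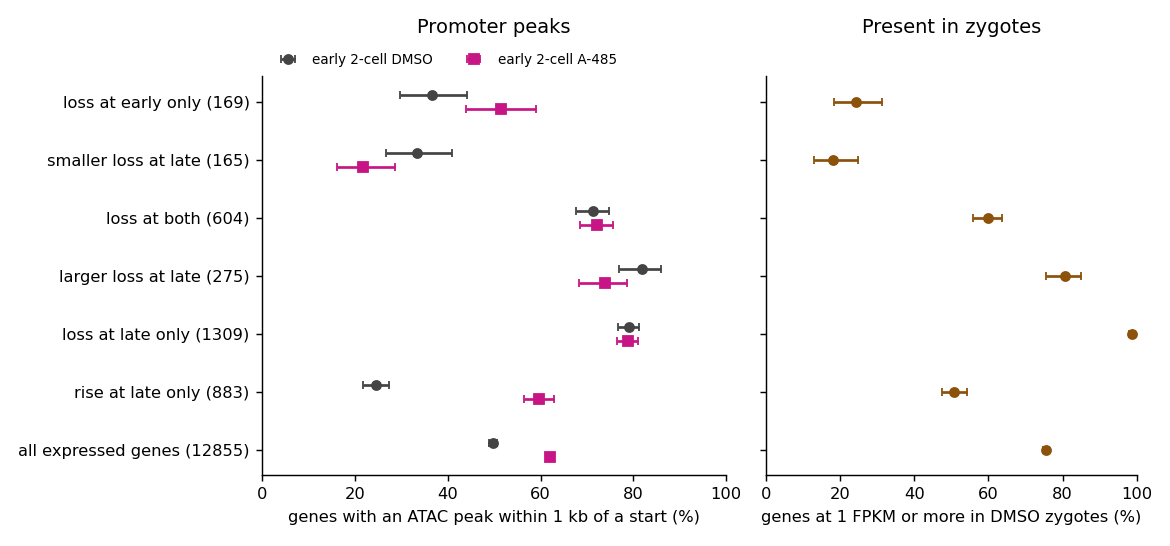
Share of the genes of each class with an ATAC peak within 1 kb of a start in the early 2-cell DMSO (grey) and A-485 (magenta) lists, left, and share at 1 FPKM or more in DMSO-treated zygotes, right, in percent with 95% Wilson intervals. The genes with a rise at late 2-cell only go from 24.5% to 59.7% with A-485. Of these 883 genes 523 were at 1 FPKM or more in early 2-cell DMSO, and their peak shares are not matched for level. The genes with late loss only, all at 1 FPKM or more in early 2-cell DMSO, stand at 98.6% in zygotes. Of all genes that pass that early cutoff 88.7% do, and levels above it are not matched.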

How the data were processed

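Total RNA libraries (SMART-Seq Stranded) were, per the study's methods, trimmed with Trimmomatic 0.39, aligned to GRCm38 with STAR 2.7.8a and quantified with RSEM 1.3.1. The authors deposited an expected count and an FPKM per gene and library, and ATAC-seq peak lists over both replicates with a fold enrichment ratio, which was not used beyond peak positions. Expected counts were rounded and genes with a summed count of at least 10 were kept. One edgeR 4.0.16 quasi-likelihood fit (R 4.3.3, limma 3.58.1) over the 8 libraries, TMM-scaled, gave the effect at each stage and the interaction, adjusted by Benjamini-Hochberg over all 25141 genes tested. SE is the absolute log2 fold change over the root of F. Calls needed an adjusted p under 0.05, 2-fold and 1 FPKM, as in the study. Deposited gene identifiers were matched to GENCODE M21 (55144 of 55385). The fit was tested on simulated counts in which far fewer genes differed than here, and only in late 2-cell A-485. The share of false calls there exceeded the nominal level. Calls near the threshold may therefore be less certain than their adjusted p says. DESeq2 1.42.0 was an alternative, and 19 were tried in all. The TAATCC shares without multicopy genes, the single-copy list without Trim43, and the counts of developmental regulators and the zygote shares at 1 FPKM in DMSO were added after seeing the data.

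The members, the 42 gene lists and the rule for named genes were chosen with earlier results of these data known. The rule took, in each class and list, the called genes with the largest interactions above a minimum level (10 FPKM for classes, 5 for list members) and a posterior SD of at most 10%, for classes without overlap of the treated and control libraries and without Gm and Rik symbols, the kept losses by early DMSO level, plus Ep300 and Crebbp. Genes with at most 3 counts in both libraries of a group got values only. RSEM divides reads shared by near-identical copies, and 52 called genes had a posterior SD over 10%. Totals of 13206163 to 23864414 counts set the precision, and Wilson intervals cover counting error only. Replicates differed beyond counting noise, so each counted as 1 sample. H3K27ac, the TSA treatment and late 2-cell chromatin were not analysed here. Some genes that these rules would name are not reported here.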

Additional observations from a re-analysis of the deposited data

Results flagged for a closer look

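What A-485 did at late 2-cell differed from what it did at early 2-cell, by the interaction test, for 1779 protein-coding genes in the lower and 1393 in the higher direction and for the following named genes, whose log2 interactions (late minus early) are given as values. Their levels stand in the report. In the genes with early loss only the values were Usp17le 4.39, Usp17la 4.21, AC153137.1 4.16, Hspa2 4.10, Crot 3.75, Hes1 3.60, Hist1h3i 2.13, Klf10 3.08 and Ldha 2.30. Among the genes with a smaller loss at late 2-cell the values were Zscan4f 7.52, Zscan4-ps2 7.07, Zscan4d 5.75, Zfp54 5.14 and Trim43b 3.98. Among the genes with a larger loss at late 2-cell the values were Ube2o -4.27, Pdxk -3.98, Coq4 -3.97, Ddx54 -3.90, Rps15 -3.35, Rpl19 -3.08, Cdc20 -2.70, Trim28 -2.31, L3mbtl2 -2.16, Smg5 -2.24, Impdh1 -3.58 and Srpr -2.18. Among the genes with late loss only the values were Rab40c -5.83, Cinp -4.99, Ipo4 -4.96, Noc2l -4.91, Arpc1a -4.81, Znrd1 -4.71, Smyd5 -4.66, Usp22 -4.39, Ep300 -1.37, Hars -3.14, Rars -2.88, Eif3g -3.26, Eif3h -3.13, Psmd14 -2.53 and Psmd6 -2.21. Further genes of that class were Ctnnbl1 -3.28, Sf3b6 -2.96, Nelfe -3.37, Ipo5 -2.92, Hsp90ab1 -2.82, Cdt1 -2.82, Gmnn -2.77, Anapc7 -3.35, Tigar -2.48, Kat2a -1.73, Sirt1 -3.58, Hdac6 -2.57, Mllt1 -2.04, Dppa3 -2.48 and Kdm1a -1.58. Further genes of that class were Uqcrfs1 -2.87, Mrps6 -3.14, Mrpl12 -3.02, Pgk1 -2.35, Aprt -3.30 and Golga2 -2.18. Among those under 1 FPKM in early 2-cell DMSO libraries the values were Zfp977 -6.43, Cpne1 -5.26, Mpdu1 -4.83, Taf6l -3.35 and Polr3e -4.03. In the genes with a rise at late 2-cell only the values were Pdgfra 5.08, Pax6 4.66, Slc2a4 3.96, Tgif1 3.85, Lgals4 3.75, Nr4a2 3.74, Rasl11a 3.66, Hoxd13 3.62, Hist1h1t 4.58, Xbp1 2.89, Mbd2 1.10, Cbx8 4.47, Kmt2a 2.05, Klf6 3.24 and Gata6 4.75. Further genes of that class were Zfp36l1 4.22, Ndufb4 5.31, Vim 5.26, mt-Nd1 1.30 and mt-Nd3 1.27. In the genes with opposite changes the values were Sox17 10.05, Morc4 5.67, Tmsb4x 5.18, Plk2 2.57, Scd2 3.70, Krt18 5.24 and Zfp105 5.72. The other named genes had Creb1 -2.12 and Msmo1 1.46.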

How the results depend on the processing

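No called interaction was called in the opposite direction by an alternative, and among 171 pairs of settings 10 held opposite calls, for at most 4 genes. DESeq2 gave 1926 lower and 1212 higher interactions, DESeq2's size factors in edgeR 1964 and 1269, and neither lost a named gene. Scaling to mitochondrially encoded genes gave 5082 lower and 641 higher interactions, 6174 genes lower and 681 higher at late 2-cell, and 100 genes with early loss only, 597 with a larger late loss, 3826 with late loss only, 269 of these kind under 1 FPKM early, 291 with a late rise and 29 with opposite changes. Of 102 named interactions, 87 kept their side of the threshold there and Crebbp turned to -0.54. With 1 FPKM required in DMSO at both stages, 784 interactions were higher, 383 genes had a late rise only, 1 an early rise only and by construction 0 a late loss from under 1 FPKM. Genes higher at early 2-cell, 49, were 102 without the FPKM cutoff and 80 with the DMSO libraries of the TSA experiment, whose treatment ran at other hours, and those with an early rise only were 8 and 11. Late loss from under 1 FPKM held 184 genes with those controls and 155 with all 16 libraries in one fit. The cause of these changes was not tested.

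Leaving out each library in turn gave 1553 to 2128 lower and 1003 to 1250 higher interactions, 1064 to 1406 genes lower and 28 to 76 higher at early 2-cell, and 3106 to 3351 lower and 1439 to 1816 higher at late 2-cell. The 76 came without late 2-cell DMSO replicate 2, and 28 and 32 without early 2-cell DMSO replicate 1 and A-485 replicate 2. Opposite changes held 32 to 51 genes, fewest without either early 2-cell A-485 library (33 and 32), and an early rise only 3 to 8. The interaction of Fundc1, not called, was 0.084 with total counts and 0.079 with the TSA experiment's controls, and between -0.47 and 0.16 with a library left out (highest without late 2-cell A-485 replicate 2). That of Set was 0.013 with total counts and between -0.53 and 0.078 with a library left out (highest without early 2-cell DMSO replicate 2). The median interactions of p53, integrated stress response and DNA methylation genes also turned below 0 with DESeq2 or its size factors. Samples of 1 number did not deviate together (r = -0.005 at early and -0.035 at late 2-cell across genes), and the replicate block gave 1816 lower and 1368 higher interactions. With 2 libraries a group, small or variable changes could pass unseen, and genes with few counts had the widest errors.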

Other observations

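In several gene types outside protein-coding genes, more interactions were higher than lower. Of 825 expressed lincRNA genes 121 were higher and 12 lower, of 449 antisense genes 60 and 4, of 388 unconfirmed transcripts (TEC) 91 and 3, of 1162 processed pseudogenes 108 and 44, and of 188 unprocessed pseudogenes 42 and 3. This was not so for 121 snoRNA genes, with 0 called and a median of -0.25, 45 snRNA genes, with 1 called and a median of 0.07, or 57 transcribed unprocessed pseudogenes, with 2 and 2. These libraries keep strand, but whether the counts used it is not given in the sources used here, so antisense and overlapping genes are uncertain.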
